A study of Homo sapiens with 8 samples.

Results

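Intronless protein-coding genes are annotated as 1 exon from start to end, so that no splice site lies within the gene model. GENCODE release 44 held 987 such genes on GRCh38, among 19959 protein-coding genes considered: all their basic transcripts (the more complete gene models of GENCODE) have 1 exon. In 65 of them a transcript outside the basic set is spliced, which leaves 922 with no annotated intron. Replication-dependent histone genes and mitochondrial genes were left out. Poly(A) peaks were assigned to a gene when they overlapped the stretch from its start to 600 bp after its end. This gave 565 of 153624 peaks (0.368%), at 276 of the 987 genes.

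The peaks came from poly(A) 3′-sequencing of Kelly, a MYCN-amplified human neuroblastoma cell line, and of Kelly E9R, a derived line that carries a point mutation at the CDK12 cysteine to which THZ531 binds. THZ531 inhibits the transcriptional kinases CDK12 and CDK13 covalently. Both lines received THZ531 or the solvent DMSO for 6 h. The labels give a dose of 400 nM, whereas the study's methods give a lower dose for both lines. The libraries formed 4 groups of 2: Kelly_DMSO, Kelly_THZ531_6h, Kelly_E9R_DMSO and Kelly_E9R_THZ531_6h. The Kelly E9R line was selected under rising doses of another covalent inhibitor, E9. Peaks had been called once on the merged reads of all 8 libraries. No peak has a value per library or a strand, so THZ531 was not compared with DMSO, no value has a replicate, and the intervals cover counting error only.

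Most messenger RNAs acquire their 3′ end when the cleavage and polyadenylation complex reads a signal on the nascent RNA, usually AATAAA or ATTAAA in DNA letters, and cuts shortly downstream of it. In genes with introns, the terminal 3′ splice site helps to recruit this complex, and U1 snRNP represses premature signals. In their basic transcripts, intronless genes have neither the terminal splice site nor a 5′ splice site, and many arose by retroposition or belong to large receptor families.

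The sequences at the strongest ends are shown first, because poly(A) signals of the kind counted below can be read in them. They belong to 9 of the 10 genes with the highest −log10 q (the deposited significance of a peak) among those with a motif and with no other annotated gene in their window. Each run of 30 bases is read 5′ to 3′ on the gene's strand of GRCh38, and capitals mark the best-ranked poly(A) signal before the 3′ end of the peak.
MAGEF1: agtaAATAAAcaagaaattagcagtgcaat
RTL8A: ttttAATAAAtgtcagacactattaaatag
ADRA2A: taaaAATAAAaaatgtacattataaaaatt
RRAGA: catgAATAAAcgtgttagcaatttaaaaca
FBLL1: ttctATTAAActgcataaagaaacggcacc
BLOC1S4: ttgaAATAGAcgtactgctcatgtgctttt
ZCCHC3: tctgAATAAAtatttatcttttgtattgct
MAGEE1: gattAATAAAtgaaacataatgctaataca
FAM43A: agagAATAAAgaggaaaatttaacagaaca

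These runs lie at chr3:184710245-184710274 on the reverse strand for MAGEF1, chrX:135050935-135050964 on the reverse strand for RTL8A and chr10:111080880-111080909 on the forward strand for ADRA2A. RRAGA lies at chr9:19050998-19051027, FBLL1 at chr5:168530607-168530636, BLOC1S4 at chr4:6717692-6717721 and ZCCHC3 at chr20:300288-300317, all on the forward strand. MAGEE1 lies at chrX:76431328-76431357 and FAM43A at chr3:194689010-194689039, also on the forward strand. Of the 9, 7 hold AATAAA, FBLL1 holds ATTAAA and BLOC1S4 holds AATAGA. In 7 of them the motif began 18 to 38 bp upstream of the peak's 3′ end, but in ZCCHC3 this distance was 70 bp and in FBLL1 78 bp. The peaks of RRAGA and BLOC1S4 were followed by A-rich genomic sequence, as defined below. Use of the marked motifs was not tested.

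To determine how many intronless genes had a detectable poly(A) site, genes with at least 1 peak were counted. A peak was present at 276 of 987 genes (28%, 95% Wilson interval 25.2 to 30.8%), against 74.9% of all protein-coding genes. In the end window, from 200 bp before to 600 bp after the annotated gene end, a peak was present at 225 genes (22.8%, interval 20.3 to 25.5%), against 53.3% of all protein-coding genes. Of the 987 genes, 165 lie inside another gene on the same strand. Of these, 44 had an end peak, which could equally be a site of that other gene. Of the genes with a peak, 130 had 1, 86 had 2 and 60 had 3 or more. In the intron-containing genes with a span of up to 5 kb, 873 of 1803 (48.4%) had a peak at the end, a difference of -25.6 percentage points (95% Newcombe interval -29.0 to -22.1). Among windows with no other gene the shares were 16.7% of 540 and 33.1% of 835, a difference of -16.4 points (-20.8 to -11.8).

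Whole gene families had few or no peaks. Of 207 intronless olfactory receptor genes, which encode odorant receptors of the nasal epithelium, 2 had a peak. No peak was found at the 94 keratin-associated protein genes of hair, the 26 USP17L deubiquitinase genes, the 16 type I interferon genes or the 13 TAF11-like and TAF1-like genes. For 0 of 94 a share of up to 3.19% is allowed, and for 0 of 13 a share of up to 23.1%. Reads matching more places than the mapping allowed were dropped, so families of similar copies such as USP17L could lack peaks through mapping. This was not tested. At the other end, 9 of 10 genes listed by symbol as early response genes had a peak (interval 59.6 to 98.2%), and 4 of 5 kelch genes (37.6 to 96.4%). So had 3 of 4 POU factors and 3 of 4 zinc finger genes (30.1 to 95.4% each). These intervals include 74.9%, the share of all protein-coding genes. Of the 481 genes on none of the 18 lists, 213 had a peak (44.3%, interval 39.9 to 48.7%). Without the olfactory, taste receptor, keratin-associated, interferon and USP17L genes, 221 of 620 intronless genes (35.6%) and 873 of 1760 short intron-containing genes (49.6%) had an end peak, a difference of -14.0 points (-18.3 to -9.46).

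**Figure D1:**
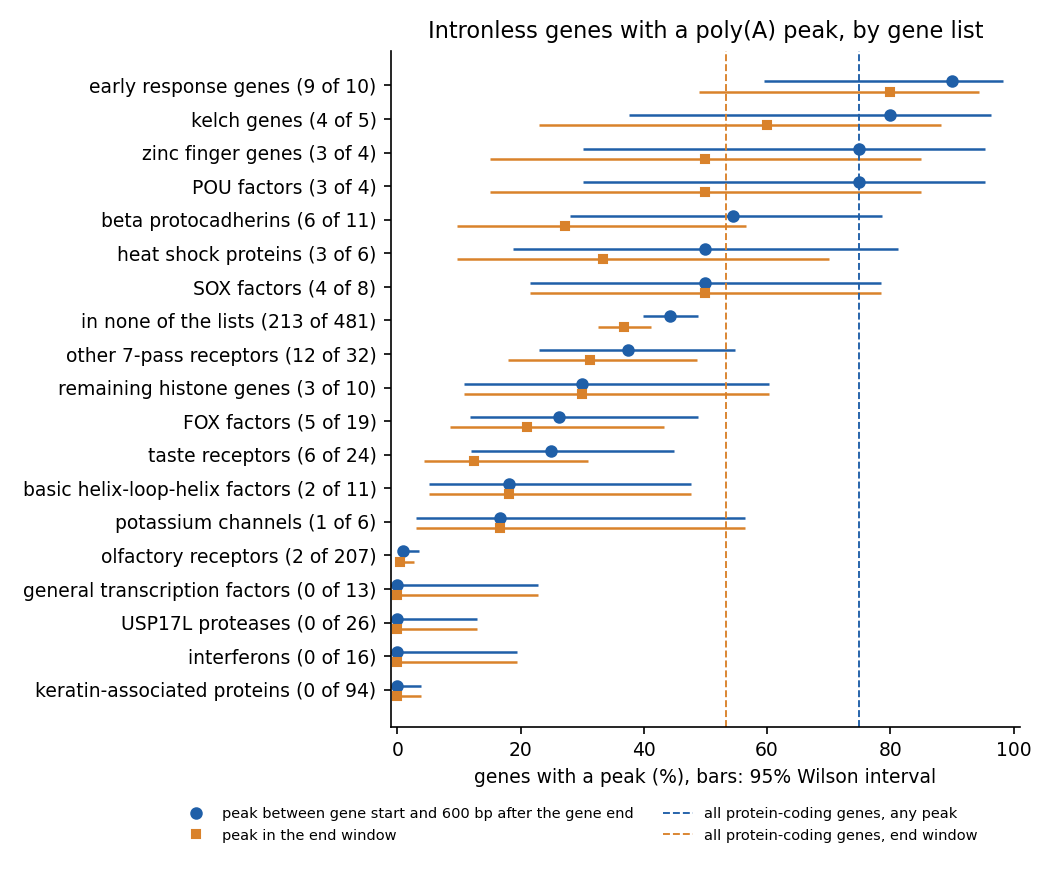
Share of intronless genes with a peak (x axis, percent of the genes on a list) for 18 gene lists and for the genes on none of them (y axis, with the number of genes with a peak of all genes on the list). Circles count any peak between gene start and 600 bp after the gene end, squares peaks in the end window, bars are 95% Wilson intervals, and dashed lines mark all protein-coding genes (74.9% and 53.3%); the early response genes lie highest at 9 of 10 and 4 lists lie at 0.

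Detection also went with exon length. Of intronless genes in the shortest quartile (39 to 939 bp of exon) 10.2% had an end peak, in the next (939 to 1251 bp) 6.30%, in the one after (1251 to 2406 bp) 29.6%, and in the longest (2406 to 9540 bp) 45.1% (246 genes, interval 39 to 51.4%). Intron-containing genes of the same exon lengths had end peaks in 33.6%, 44.6%, 51.9% and 58.5%. The intervals of both kinds of gene did not overlap in any of the 4 length classes. The classes were not counted without the large families named above, so exon length and family cannot be told apart here. Nor were genes inside another gene on the same strand counted apart.

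**Figure D2:**
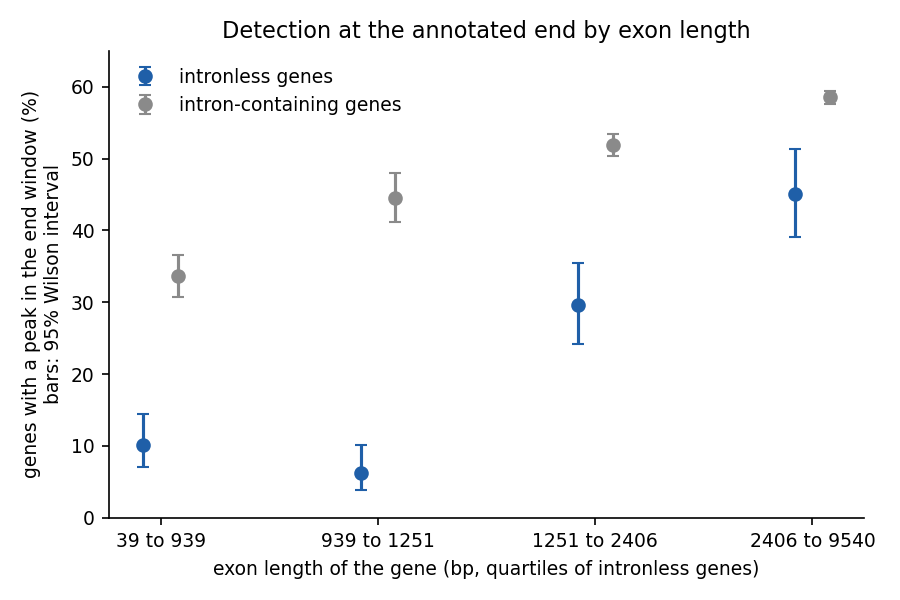
Share of genes with a peak in the end window (y axis, percent) in 4 classes of exon length (x axis, bp, quartiles of the intronless genes), for intronless genes (blue) and intron-containing genes (grey). Points are shares and bars 95% Wilson intervals; intronless genes range from 6.30% to 45.1% and lie below intron-containing genes in every class.

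The peaks at annotated ends were moderate in height. One peak per gene, the one with the highest −log10 q, was used for the 225 genes. The pileup, the height of extended reads over the summit in the merged libraries, had a median of 18 (quartiles 11 and 25) and ranged from 5 to 88. Over the whole list its highest value was 200, which is 1 read per position and strand within the 100 bp of extension. Repeated reads at a position may therefore not be counted, so pileup and −log10 q cannot be taken as amounts of RNA. The fold enrichment over local background had a median of 9.38 and reached 26.6. The −log10 q ranged from 2.85 to 97.3 with a median of 13.9, and it was at least 5, the study's own limit, at 209 peaks. Short intron-containing genes had a median pileup of 22 (quartiles 14 and 35) and all intron-containing genes one of 19. The sequence before the peak was found at 1 place in the genome for 211 of 225 peaks (93.8%). The other 14 include C6orf226, SETSIP, NACA2 and YY2, whose copies could share reads, since multi-mapped reads were kept up to a set number of places.

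The highest end peak belonged to PCBP1, which encodes a poly(C)-binding RNA-binding protein and is a retroposed copy in origin. It had a −log10 q of 97.3, a pileup of 88 and a 3′ end 4 bp before the annotated end, and its window also holds 2 long noncoding RNA genes, among them PCBP1-AS1. PCBP1 is named because its value was seen to be highest. Among genes with a window of their own, MAGEF1, which encodes a MAGE protein that partners a ubiquitin ligase, ranked highest with a −log10 q of 45.4, a pileup of 51 and a fold of 15.8. It was followed by RTL8A, a gene domesticated from a retrotransposon gag sequence, with a −log10 q of 41.7 and a pileup of 37 at 9 bp after the annotated end. ADRA2A, the alpha-2A adrenergic receptor, had a −log10 q of 39.6 and a pileup of 35. Its only peak ended 12 bp after the annotated end.

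RRAGA, a Rag GTPase of amino acid signalling to mTORC1, reached a −log10 q of 39.1 at 2 bp from its annotated end. FBLL1, a fibrillarin-like methyltransferase gene, reached 38.2, and BLOC1S4, a subunit of the BLOC-1 complex of lysosome-related organelles, reached 37.4. ZCCHC3, which encodes a zinc-knuckle nucleic acid-binding protein, followed with 37.3, and the MAGE gene MAGEE1 with 35. FAM43A had 34.8 and the splicing factor SRSF8 34.3. PNMA1, whose protein resembles retroviral gag, had a −log10 q of 33.6 at 194 bp after its annotated end, with none of the 12 motifs on either strand. These 11 genes had pileups of 25 to 51. They were selected by −log10 q, which rises with the pileup, so pileups above the median of 18 follow from that choice.

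The distance between peak and annotation was small for most genes. The 3′ end of the end peak lay a median of 4 bp after the annotated end (quartiles -2 and 104). It lay within 10 bp of the annotated end in 112 of 225 genes (49.8%, interval 43.3 to 56.3%) and within 50 bp in 141 (62.7%). The corresponding share within 10 bp was 64.3% in intron-containing genes of all lengths (interval 63.4 to 65.2%) and 49.7% in short ones (46.4 to 53%). More than 100 bp after the annotated end lay 57 intronless end peaks (25.3%, interval 20.1 to 31.4%), against 14.7% in intron-containing genes of all lengths and 24.7% (22 to 27.7%) in short ones. Another gene lay in 42 of these 57 windows, and in 135 of all 225 (60%). A peak needed to overlap the window by 1 bp, so that its 3′ end could lie beyond it. The furthest were SLC18A3, the vesicular acetylcholine transporter gene nested in CHAT, at 1082 bp, and ACTL10 at 738 bp, S1PR4 at 689 bp, CCDC85B at 680 bp and RAB40AL at 664 bp. Each of these 5 windows held 1 other gene, to which the peak could equally belong.

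**Figure D3:**
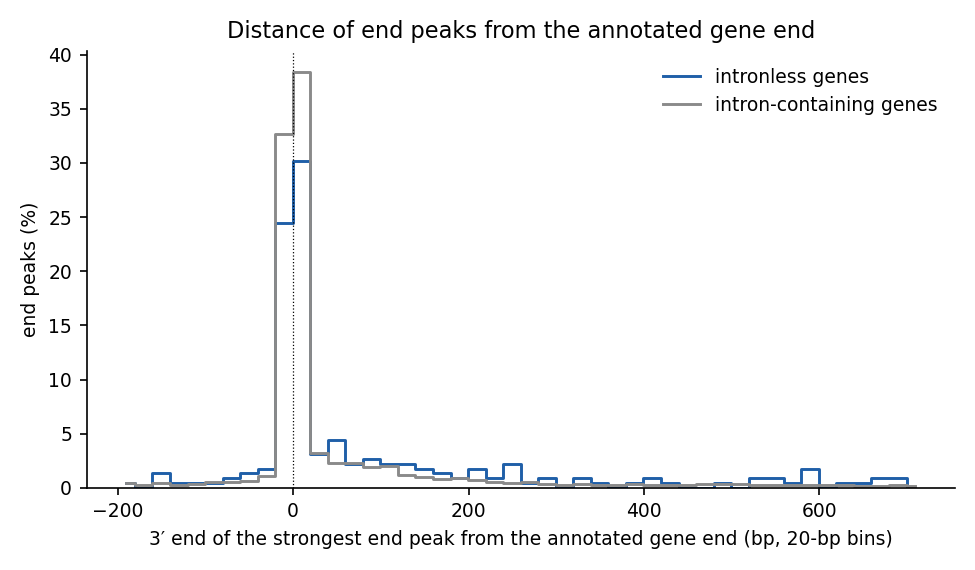
Share of end peaks (y axis, percent) by the distance of their 3′ end from the annotated gene end (x axis, bp in 20-bp bins, positive values after the end), for 225 intronless genes (blue) and 10414 intron-containing genes (grey). Both distributions peak at the annotated end, and more than 100 bp after it lie 25.3% of the intronless peaks, 14.7% of those of intron-containing genes of all lengths and 24.7% of those of short intron-containing genes (not drawn).

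Poly(A) signals were then searched in the 100 bp before the 3′ end of each end peak, on the strand of the gene. The background was the opposite strand, read as a mirror image from the other edge of each peak. One or more of the 12 motifs stood before the end peak of 192 of 225 genes (85.3%, interval 80.1 to 89.4%), against 61.3% on the opposite strand. These are 224 distinct peaks, since 1 peak is the end peak of 2 genes. Of the peaks with a motif on a single strand, 71 had it on the strand of the gene and 17 on the other (two-sided exact McNemar test, p = 5.15e-09). For AATAAA and ATTAAA alone the shares were 66.7% and 25.3%, with 117 and 24 peaks on 1 strand only (p = 6.92e-16 in the same exact test). The best-ranked motif was AATAAA at 120 peaks and ATTAAA at 30. It was AGTAAA at 8, TATAAA at 7, AAGAAA at 6, CATAAA at 5, AATATA and also AATACA at 4 each, AATGAA at 3, GATAAA and also AATAGA at 2 each, and ACTAAA at 1. No motif was found at 33 peaks, and 27 of these lay in windows with another gene.

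The motifs were also placed where the signal is read. AATAAA or ATTAAA started 10 to 35 bp upstream of the 3′ end in 48.9% of end peaks (interval 42.4 to 55.4%), against 9.78% on the opposite strand (102 peaks against 14 on 1 strand only, exact McNemar p = 1.13e-17). The share was 63.0% in intron-containing genes of all lengths and 47.9% (44.6 to 51.2%) in short ones. The median start was 27.5 bp before the 3′ end (150 peaks with 1 of the 2 signals as best motif). In the 40 bp after the peak, T made up 32.2% ± 11.7 (SD, n = 225 peaks) of bases on the gene's strand and 26.3% ± 10.7 on the opposite strand. U-rich sequence downstream of the cleavage site is bound by the cleavage stimulation factor.

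**Figure D4:**
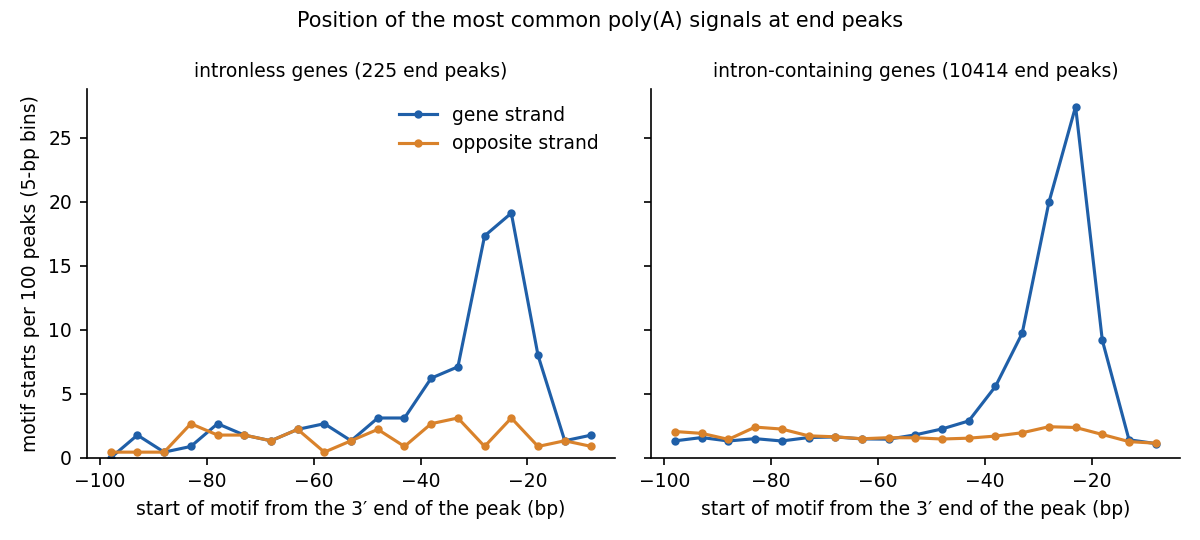
Starts of AATAAA and ATTAAA per 100 end peaks (y axis) by position before the 3′ end of the peak (x axis, bp, 5-bp bins) on the gene's strand (blue) and the opposite strand (orange), for 225 intronless genes (left) and 10414 intron-containing genes (right). On the gene's strand the starts gather at 21 to 25 bp, with 19.1 per 100 peaks in intronless genes, and on the opposite strand no bin exceeds 3.11 per 100 peaks.

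The shares were also counted by whether the window held another gene. Among the 90 end peaks in windows of their own, 93.3% had a motif (61.1% on the opposite strand, exact McNemar p = 2.98e-08) and 73.3% had AATAAA or ATTAAA (23.3%, p = 1.36e-09 in the same exact test). Among the 135 in windows with another gene, the shares were 80% (61.5%, exact p = 0.00126) and 62.2% (26.7%, exact p = 8.95e-08). AATAAA or ATTAAA stood only on the opposite strand at 24 peaks, and 15 of these windows (62.5%) held a gene on that strand, as did 94 of all 225 (41.8%). GPR62 and JUNB are examples: both end peaks lacked a motif on the gene's strand and had AATAAA on the opposite strand, where PCBP4 and HOOK2 share the windows. For the 112 peaks within 10 bp of the annotated end the share with AATAAA or ATTAAA was 85.7% (24.1% on the opposite strand), and for the 57 more than 100 bp after it 35.1% (29.8%).

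A-rich genomic sequence after a peak, to which the oligo(dT) primer can anneal inside a transcript, was found at 21.3% of end peaks (48 of 225) on the gene's strand and at 23.1% on the opposite strand (42 and 46 on 1 strand only, exact McNemar p = 0.749). In short intron-containing genes the share on the gene's strand was 8.59%, a difference of 12.7 points (7.48 to 18.8). Within windows of their own the shares were 14.4% and 12%, and the interval of the difference (-4.77 to 11.8) included 0. The motif share was 5.84 points higher than in short intron-containing genes (0.0340 to 10.7), but against intron-containing genes of all lengths (88.9%) the difference was -3.57 points and its interval included 0. For AATAAA and ATTAAA the share was 66.7% in both intronless and short intron-containing genes (difference 0, interval -7.08 to 6.65), 73.3% and 80.8% in windows without another gene, and 76.6% in intron-containing genes of all lengths, a difference of -9.91 points (-16.4 to -4.02).

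Intronless genes also held peaks inside their exon. There were 230 such pairs of peak and gene, at 135 genes, a median of 1704.5 bp before the annotated end, with a median pileup of 16. Of these, 209 ended in the 3′ untranslated region (3′ UTR), 15 in coding sequence and 6 in the 5′ UTR. AATAAA or ATTAAA preceded 52.6% of the 230, against 20.9% on the opposite strand (exact McNemar p = 3.24e-12), and A-rich sequence followed 39.1%, against 32.2% (exact p = 0.149). Both tests counted pairs, not genes. The 230 pairs come from 135 genes, so peaks of the same gene were treated as independent, and the p-values may be too small. Another gene lay in the window of 143 of the 230 pairs, and the peak could belong to that gene. Of the pairs that ended in the 3′ UTR, 55.5% had AATAAA or ATTAAA and 36.8% were followed by A-rich sequence. In coding sequence and the 5′ UTR, these shares were 23.8% (5 of 21) and 61.9% (13 of 21), with a median pileup of 11. The density over the exons of genes with an end peak was 25.5 per 100 kb (exact Poisson interval 21.5 to 30.1), against 20.1 (17.6 to 22.9) in short intron-containing genes and 33.8 (33.3 to 34.4) in intron-containing genes of all lengths. In windows without another gene the densities were 26 (19.6 to 34) in intronless and 25.4 (20.6 to 31) in short intron-containing genes. For the internal peaks that had a motif but lacked A-rich sequence, it was 12.5 (9.72 to 15.8) against 7.35 (5.86 to 9.10) and 11.1 (10.8 to 11.4).

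In 91 genes both an internal and an end peak were present, and in 40 of these (interval 34.2 to 54.2%) the internal peak had the higher −log10 q. UBQLN2, which encodes a ubiquitin-binding shuttle protein, had an internal peak with a −log10 q of 50.4 and a pileup of 48 at 913 bp before its end, with AATAAA 30 bp before the peak's 3′ end. Its end peak reached a −log10 q of 20.03 and a pileup of 26. B3GALT6, a galactosyltransferase gene of glycosaminoglycan synthesis, had an internal peak of 52.5 (pileup 56) without a motif on either strand, and an end peak of 20.1 with ATTAAA. The highest internal peak, at 57.9 with a pileup of 39, lay in EIF5AL1, a retroposed copy of EIF5A. Its sequence was found at 2 places in the genome, so that its reads could belong to either. UBQLN2, B3GALT6 and EIF5AL1 were named after their values were seen.

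**Figure D5:**
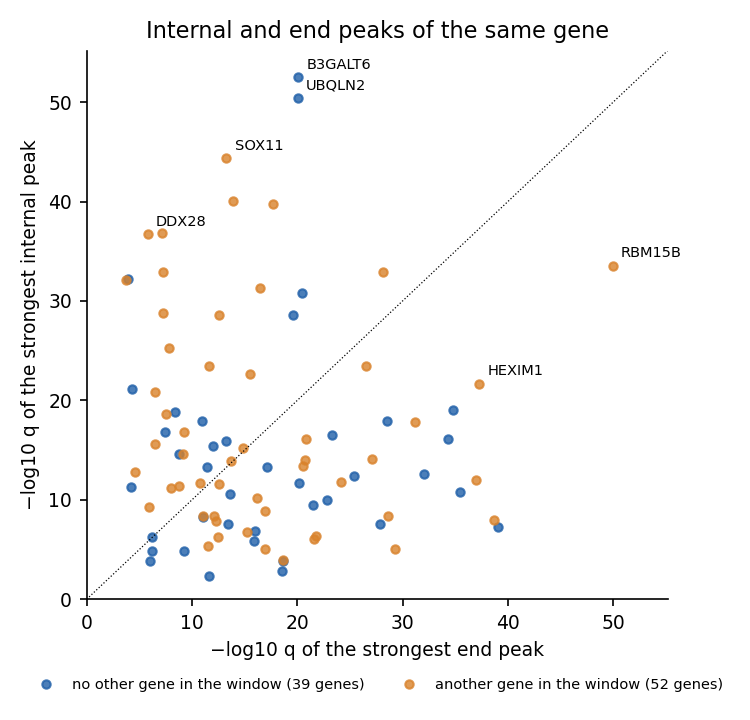
−log10 q of the strongest internal peak (y axis) against that of the strongest end peak (x axis) for the 91 intronless genes with both; blue marks genes with no other gene in the window and orange the others, and the dotted line marks equal values. In 40 genes the internal peak lies above the line, with B3GALT6, SOX11 and DDX28 furthest above it.

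The number of peaks per gene was highest in TAS2R14, a bitter taste receptor gene whose record spans 234166 bp and overlaps 17 other genes. It held 53 peaks, 1 of them in the end window (−log10 q 6.86, AATAAA 23 bp before its 3′ end), and the other 52 lay outside its basic transcripts. Across all genes 71 pairs fell outside the basic transcripts, 19 of them in 11 other genes. For 27 genes the record ends downstream of every basic transcript, by up to 61630 bp in LDOC1. After TAS2R14, SOX11 and SRSF8 had 6 peaks each, and 7 genes (CREBZF, GPR135, MOCS3, PIGM, PURB, SOX4 and TSPYL1) had 5 each.

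SOX11 and SOX4 encode transcription factors of neuronal progenitors. Of the 6 peaks of SOX11, 5 ended in its 3′ UTR and 1 after the annotated end. The strongest (−log10 q 44.4, pileup 64) lay 5745 bp before the annotated end with AATAAA 27 bp before its 3′ end. The next (32.1, pileup 50) lay 6982 bp before the end and had no motif. At the annotated end itself the −log10 q was 8.66 with AATAAA. The peak 576 bp after that end (13.3) was preceded by ATTAAA and followed by A-rich sequence. In SOX4 the strongest peak (23.5, pileup 37) lay 1635 bp before the end, was preceded by AAGAAA and was followed by A-rich sequence, whereas the peak 2 bp before the annotated end (11.6, pileup 24) had AATAAA and no A-rich sequence. SOX12 had its stronger peak (28.8) 1448 bp inside and a weaker one (7.21) 1 bp before the end. SOX2 ended 2 bp before the annotation with a −log10 q of 11. Each of these 4 windows holds 1 other gene; SOX14, SOX21, SOX1 and SOX3 had no peak.

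The early response genes were listed by symbol alone (JUN, IER, CEBP, RHOB, SOCS, KLF, ATF and HES). They are transcription factor and signalling genes, and their induction by stimuli was not measured. In 8 of 10 cases they had end peaks (interval 49.0 to 94.3%), against 53.3% of all protein-coding genes. Their −log10 q ranged from 8.6 to 45.9 and their pileup from 11 to 46, and 6 of the 8 pileups were above 18, the median of all end peaks. CEBPA, CEBPB, JUNB and IER5L share their windows with other genes, to which the peaks could belong. Of the early response genes in windows without another gene, 5 of 6 had a peak. CEBPB, a bZIP factor gene that shares its window with CEBPB-AS1, ended 20 bp after the annotated end with a −log10 q of 45.9 and a pileup of 46. JUND had 29.2 (pileup 44) at 62 bp before the end with AGTAAA, and JUNB 29.3 (pileup 40) at 240 bp after it. In IER5L the internal peak (33.0, with AATAAA) was above the end peak (28.2, without a motif). JUN, the AP-1 subunit, had 4 peaks and none in the window of its gene record, which runs on past the basic transcript. Its peaks at the basic transcript end (13.9) and 522 bp inside it (41.2, pileup 56) both had AATAAA. Of the 10 genes only KLF14 had no peak.

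Among the other receptors, 12 of 32 intronless genes had a peak (interval 22.9 to 54.7%), against 74.9% of all protein-coding genes. FZD7, a Wnt receptor, ended 2 bp after the annotated end with a −log10 q of 15.9, a pileup of 14 and AATAAA. A-rich sequence followed this peak. The olfactory receptor OR2B6 had a peak at 141 bp after its end (11.8, pileup 11) with AATAAA 27 bp before the 3′ end. The peak of OR51B5 lay outside its basic transcripts, in a record that overlaps 17 other genes. Taste receptor genes had end peaks in 3 of 24 cases (interval 4.34 to 31.0%), against 53.3% of all protein-coding genes. They were TAS2R14 (6.86), TAS2R10 (9.03, in a window with PRH1 and followed by A-rich sequence) and TAS2R42 (5.43, at 557 bp and without a motif).

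Of the 11 beta protocadherin genes, which encode neuronal adhesion proteins, 6 had a peak (interval 28.0 to 78.7%) and 3 an end peak (9.75 to 56.6%). The shares of all protein-coding genes were 74.9% and 53.3%, each within the interval. All 11 windows held other genes. PCDHB10 and PCDHB16 both ended 3 bp before the annotated end with AATAAA 25 bp before the 3′ end (−log10 q 24.4 and 7.51), and PCDHB5 had an end peak of 6.5 at 214 bp after it. Of the POU factors, POU3F1 ended 1 bp after the annotation (22.9, pileup 20) with AGTAAA. POU5F2 ended 4 bp after it (5.96) without a motif, followed by A-rich sequence. FOX factors with an end peak were FOXC1 (20.2, pileup 21), FOXD3 (5.21), FOXD4L1 (5.21) and FOXD2 (4.81), all within 3 bp of the annotated end and all with AATAAA. The sequence of the FOXD4L1 peak was found at 4 places. Of the basic helix-loop-helix factors, ATOH7 (30.6, pileup 28) ended 239 bp after its annotated end with ATTAAA. TAL2 (4.20, pileup 5) had no motif and was followed by A-rich sequence.

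Of the remaining histone genes, whose mRNAs can be polyadenylated, 3 of 10 had an end peak (interval 10.8 to 60.3%), against 53.3% of all protein-coding genes. H3-5 had 24.2 at 588 bp after its end with AATAAA, and A-rich sequence followed the peak. H2AX had 11.3 at 136 bp after its end in a window shared with 1 other gene. In H2AJ the end peak of the gene record (5.51, ATTAAA) lay 2974 bp past the basic transcript, and a higher peak (8.32, pileup 10) lay 6 bp after the end of that transcript with AATAAA. Of the 6 heat shock genes, 2 had an end peak (interval 9.68 to 70.0%), against 53.3% of all protein-coding genes. These were HSPA1B (20.1, 128 bp after the end, no motif) and DNAJC30 (8.74, 537 bp after the end, no motif, followed by A-rich sequence). Of the kelch genes, adaptors of cullin-3 ubiquitin ligases, KBTBD6 (28.5), KLHL34 (17.6) and KBTBD7 (13.7) had end peaks, and KLHL9 had 4 internal peaks (highest 18.4) and none at its end. ZXDB (25.3, followed by A-rich sequence) and ZXDA (18.5), X-linked zinc finger genes, ended 51 and 140 bp after their annotated ends. The potassium channel gene KCNA3 (8.57, pileup 9) ended 1 bp after the end of its gene record with AATAAA. That record runs 18905 bp past the basic transcript.

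The strongest peak of a gene was not at its annotated end in 95 of 276 genes, and it was internal in 82. Furthest before the end of the gene record lay the strongest peaks of TAS2R14 (105224 bp), LDOC1 (64137 bp), OR51B5 (57599 bp), C17orf100 (36840 bp) and GPR135 (34492 bp). All 5 records are long, between 36359 and 234166 bp. In LDOC1 the peak (25.3, pileup 23, AATAAA 31 bp before its 3′ end) lay 2507 bp inside the basic transcript.

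As a check of the cell type, 7 adrenergic neuroblastoma markers (MYCN, PHOX2A, HAND2, GATA3, DBH, TH and ISL1) all had end peaks, with −log10 q values from 18.8 to 93.5. Of 8 markers of fibroblasts, blood, endothelium and liver, 2 had one, COL1A1 (19.8) and COL3A1 (7.71). The list also held 87 peaks on ERCC spike-in sequences.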

How the data were processed

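Poly(A) 3′-sequencing (QuantSeq 3′ REV) was performed by the authors in 8 libraries of Kelly and Kelly E9R cells. A read of this kit starts at the cleavage site and extends into the transcript. The authors trimmed reads, mapped them with STAR 2.5.1b to GRCh38 with ERCC sequences, merged all libraries and called peaks with MACS2 2.1.1, extending reads to 100 bp. The submitters' processing notes also name SAMtools and deepTools 2.5.4. Multi-mapped reads were retained within a set number of places, and the handling of duplicate reads is not given in the sources used here. The labels give 400 nM THZ531, whereas the study's methods give a lower dose for Kelly cells.

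The deposited list holds, for each peak, a score, the fold enrichment (a ratio of pileup to local background), the −log10 p-value and the −log10 q-value, all as computed by MACS2 for the authors, plus the deposited offset of the summit. It has 0 per-library columns and gives a strand for 0 peaks, so that depth per library is unknown. Libraries were grouped by their titles. A planned comparison of treatments had no values to use.

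Genes were taken from GENCODE release 44, newer than the release of the study, which had also kept expressed transcripts only. Intronless genes were the protein-coding genes on the main chromosomes whose basic transcripts all have 1 exon, without names starting with H1-, H2AC, H2BC, H3C or H4C and a number (H2BC12L is thereby also left out). No peak lay past the end of a chromosome (0 of 153624). The whole pileup behind each fold and −log10 p was recovered for 100% of peaks within 0.001. Motifs were the 12 of the study, searched in 100 bp. Sequence after a peak was A-rich if its first 50 bp held a run of 6 A or 10 bases with 7 A. Copies of the 100 bp before a peak's 3′ end were found with blastn 2.17.0 at 95% identity over 95% of the length. Shares carry 95% Wilson intervals, differences Newcombe intervals, densities exact Poisson intervals, and strands were compared by two-sided exact McNemar tests. Zero counts carry a floor of 3 counts. Intervals cover counting error only, and reads carry no molecular identifiers. The scripts were tested on simulated data (Python 3.11.15, scipy 1.17.1, pandas 2.3.3, pysam 0.24.0).

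The members and gene lists were chosen with earlier results of these data known. The rule for named genes took the 12 genes with the highest −log10 q in windows without another gene, up to 4 genes per list, the 5 genes with the most peaks (ties at 5 peaks are all named) and the 5 furthest before and after the annotated end. Some genes that the rule or the marker list takes are not reported here. Alternatives covered the −log10 q limit, the overlap, the windows, the motif and A-rich rules, the gene models and the compared genes.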

Additional observations from a re-analysis of the deposited data

How the results depend on the processing

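With a −log10 q of at least 10, the share of intronless genes with a peak was 22.1% in place of 28%, and the share with an end peak 16.1% in place of 22.8%. In windows without another gene these shares were 19.8% and 16.7%. Searching the 100 bp before the summit in place of the 3′ end turned the direction of the motif share. It was 40.4% on the gene's strand and 58.7% on the opposite strand. That window stops at the summit, whereas AATAAA or ATTAAA started a median of 27.5 bp before the 3′ end. The cause of the turn was not tested. Measured from the summit, the median distance from the annotated end was -53 bp, since the summit lies upstream of the 3′ end by construction. With A-rich sequence counted in the first 20 bp after the peak, the share was 14.7% and the direction between the strands turned. Restricting internal peaks to those that had a motif but lacked A-rich sequence gave a density of 12.5 per 100 kb in place of 25.5. Against intron-containing genes of all lengths, the difference in motif share was -3.57 points in place of 5.84, and that in AATAAA or ATTAAA -9.91 points in place of 0. In windows without another gene, the difference in motif share was 4.57 points that in AATAAA or ATTAAA -7.46 points in place of 0 and that in A-rich sequence 2.49 points, and the 3 intervals included 0. The other 40 alternative values of these results kept their direction and their side of the limit, or stayed within the interval of the value they replace. Of the values of single genes and lists, 73 stayed the same and 15 moved. The 15 are counts of genes with a peak on a list. The 73 include genes chosen for the highest −log10 q, which these alternatives could hardly change. They also include lists without a peak, where a stricter limit leaves 0 in place. These values are therefore no measure of stability. No beta protocadherin and no USP17L gene has a window without another gene, so those lists have no such count. The 5 added alternatives were chosen after seeing the data: end windows of any basic transcript, genes whose record is no longer than their basic transcripts, peaks found at 1 place, each peak counted once (motif share 85.3%, exact McNemar p = 8.35e-09), and genes outside the 5 large families.

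No paired analysis was possible because the peak list holds no value per library, and no library was left out for the same reason. Peaks rest on a median pileup of 9 in the whole list, which limits detection of genes with little RNA, and a peak without a strand cannot be given to 1 of 2 overlapping genes.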

Other observations

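A list of genes derived from retrotransposon gag sequence, those named RTL or PNMA with a number and LDOC1, was made after their values were seen and carries no test. All 8 had a peak (LDOC1, PNMA1, PNMA8B, PNMA8C, RTL5, RTL8A, RTL8B and RTL8C), against 74.9% of all protein-coding genes. Of these 8, 6 had an end peak, against 22.8% of all intronless genes and 53.3% of all protein-coding genes. RTL8A (−log10 q 41.7) and RTL8C (25.2), neighbouring copies on the X chromosome, ended 9 and 1 bp after their annotated ends with AATAAA, and RTL5 (20.7) 4 bp after it. In RTL8B the internal peak 770 bp before the end (15.4, AATAAA) was above the end peak (12, AATGAA). The peak of RTL5 in its coding sequence (14.0) had no motif and was followed by A-rich sequence. Of the 7 intronless MAGE genes, 3 had an end peak, against 53.3% of all protein-coding genes: MAGEF1 (45.4), MAGEE1 (35) and MAGEH1 (21.2). The MAGE list too was made after its values were seen.

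HNRNPA0, which encodes an hnRNP protein, had 3 internal peaks (34.6, 26.3 and 21.3) and none at its annotated end. HEXIM1, which encodes an inhibitor of the elongation factor P-TEFb, had its strongest peak 66 bp after the annotated end (37.3, pileup 61) and weaker ones 1448 bp and 1107 bp before it (21.7 and 8.71). PURB, a single-stranded nucleic acid-binding protein gene, had 5 peaks, of which the one 6 bp after the annotated end was highest (20.6). These genes were named after their values were seen.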
